A study of Mus musculus with 15 samples.

Results

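Macrophage identity and polarization were followed in mouse pancreas through 10 genes that had been picked by name: the identity genes Adgre1, Cd68, Csf1r and Itgam, the genes of alternative activation Mrc1, Cd163, Arg1, Chil3 and Retnla, and Nos2 of classical activation. All 10 were present by name in both raw count tables described here, out of 15175 genes in the MC table and 49585 in the HC table. All 10 passed the filter on low counts in both comparisons. The tables held 11 of the 15 RNA-seq libraries of the series, each from the pooled pancreas RNA of 3 C57BL/6 mice. HPK1, encoded by Map4k1, is a kinase of the MAP4K family, and M46 is its kinase-dead form. The M46 Bac-cre mice (MC, 3 libraries, genotype label HPK1-M46 transgenic) were set against B control mice (3 libraries), both aged 2 months. The HPK1 Bac-cre mice (HC, 3 libraries, genotype HPK1/B) were set against WT control mice (2 libraries), both aged 4 months. The mice of all 4 groups had received cerulein, a secretagogue that injures acinar cells. Bac-cre stands for Ela-CreERT, a tamoxifen-inducible Cre active in acinar cells, so the transgenes were directed to acinar cells and the macrophages kept their own genotype. The RNA came from whole tissue, in which more macrophages and more of a transcript per macrophage cannot be told apart. The comparisons address how the expression of active or kinase-dead HPK1 in acinar cells related to the macrophages of the pancreas.

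Macrophages are phagocytes that derive from embryonic precursors or from blood monocytes and depend on signals through the CSF1 receptor, the product of Csf1r. Interferon gamma and bacterial products drive classical activation, in which Nos2 makes nitric oxide from arginine. Interleukins 4 and 13, acting through STAT6, drive alternative activation, in which Arg1 uses the same arginine to make ornithine and the mannose receptor Mrc1 (CD206), the lectin Chil3 (Ym1) and the secreted protein Retnla (Fizz1) are made.

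The stretches upstream of 4 genes are shown because they hold the letters that STAT factors and PU.1, the factor of the myeloid lineage, are known to prefer, and because Chil3 and its neighbour Chil4 are near copies of each other. RefSeq promoter windows on GRCm38.p6 (250 bases before to 50 after the start) were found for 6 of the 10 genes, Mrc1, Chil3, Cd163, Itgam, Cd68 and Retnla, and for Chil4. Adgre1, Csf1r, Arg1 and Nos2 were not matched. Each stretch runs 5′ to 3′ on the gene's own strand from 250 to 61 bases before the RefSeq start. Capitals mark matches, on either strand, to the STAT motifs TTCNNNGAA and TTCNNNNGAA and to the PU.1 core GAGGAA. Retnla lies at chr16:48842359-48842548 (plus strand), Chil3 at chr3:106167625-106167814 (minus strand), Chil4 at chr3:106219540-106219729 (minus strand) and Mrc1 at chr2:14229164-14229353 (plus strand).
Retnla: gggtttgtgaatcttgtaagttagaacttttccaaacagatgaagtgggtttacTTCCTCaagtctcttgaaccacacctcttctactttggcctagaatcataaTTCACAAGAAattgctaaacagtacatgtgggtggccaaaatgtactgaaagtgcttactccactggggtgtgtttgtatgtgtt
Chil3: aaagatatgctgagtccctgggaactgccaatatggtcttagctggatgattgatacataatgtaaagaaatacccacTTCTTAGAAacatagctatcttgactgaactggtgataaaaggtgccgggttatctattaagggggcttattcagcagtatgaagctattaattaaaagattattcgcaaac
Chil4: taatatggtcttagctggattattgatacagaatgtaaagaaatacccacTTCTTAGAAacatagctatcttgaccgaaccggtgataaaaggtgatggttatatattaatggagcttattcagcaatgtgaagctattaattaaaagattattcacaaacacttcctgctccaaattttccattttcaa
Mrc1: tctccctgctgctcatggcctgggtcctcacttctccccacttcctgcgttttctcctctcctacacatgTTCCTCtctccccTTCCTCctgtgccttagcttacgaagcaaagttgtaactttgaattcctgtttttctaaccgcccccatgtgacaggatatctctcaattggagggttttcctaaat
Retnla held the STAT motif with 4 free bases at -145 to -136, a form found in 6.95% of 32851 promoter windows, and 1 PU.1 core at -196. Chil3 and Chil4 held the same STAT match with 3 free bases, a form found in 8.3% of the windows, at -172 and -200. Mrc1 held 3 PU.1 cores, at -180, -167 and -35, the last of them downstream of the stretch shown, whereas 28.3% of all windows held at least 1. Itgam held 3 PU.1 cores, Cd68 held 2, and the Cd163 window held none of these letters. These matches are a description of the letters in the windows.

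On GRCm38 the identity genes lie at chr17:57358691-57483527 (Adgre1), chr11:69664213-69666153 (Cd68), chr18:61100598-61132149 (Csf1r) and chr7:128062640-128118491 (Itgam). The genes of alternative activation lie at chr2:14229392-14332057 (Mrc1), chr6:124304656-124330527 (Cd163), chr10:24915221-24927484 (Arg1), chr3:106147554-106167564 (Chil3) and chr16:48842551-48844461 (Retnla), and Nos2 lies at chr11:78920787-78960254. The counts are sums over the exons of these genes, except for Itgam in the MC table, where the name is paired with another gene model.

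The libraries held 29766575 to 37829604 counts each, so that 3 counts corresponded to 0.071 to 0.135 CPM, counts per 1e6 counts. CPM were scaled by the trimmed mean of M values (TMM). Calls used the p from the edgeR quasi-likelihood test, adjusted by Benjamini-Hochberg over all genes that passed the filter on low counts. A gene counted as called if that adjusted p did not exceed 0.05 and its log2 fold change was 1 or more in size. Every adjusted p below is from that test unless another tool is named. Several libraries differed in ways that their labels do not give. Map4k1 was 3.43 CPM ± 0.96 in the MC control and 7.54 ± 0.76 in MC (SD, n = 3 each), but 13.5 ± 2.75 (n = 2) in the HC control and 6.77 ± 1.52 (n = 3) in the libraries labelled HC. Map4k1 was thus higher in MC (log2 fold change 1.13, adjusted p = 0.110) and lower in the libraries labelled HC than in their control (-0.99, adjusted p = 0.145). It was called in neither comparison. Ptprc, a gene of all leukocytes, moved the same way, with log2 fold changes of 1.66 and -0.95. Whether reads of the transgenes were counted as Map4k1 is not given in the sources used here, so these values do not test the labels. Genes of acinar cells, the defining cells of the exocrine pancreas, made up 43.4% to 58% of the counts in the MC control and 37.7% to 47.4% in MC. The lowest share among the control libraries was that of control replicate 2. In all 5 libraries of the HC experiment the acinar share was only 5.95% to 9.22%. Genes of the stomach made up 0.906% to 0.93% of the counts in the libraries labelled HC and 0.25% to 0.406% in their control. The library labelled HC replicate 3 had 24 counts of Xist, against 18228 to 36275 in the other 4 of its table. It had 1525 counts of the Y-linked gene Ddx3y, against 0 in the other 4. By these genes it came from males and the others from females, so sex was mixed in the libraries labelled HC but not in their control. The MC table gave no counts for Xist or Ddx3y, so the sex of MC and its control was not checked.

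**Figure D1:**
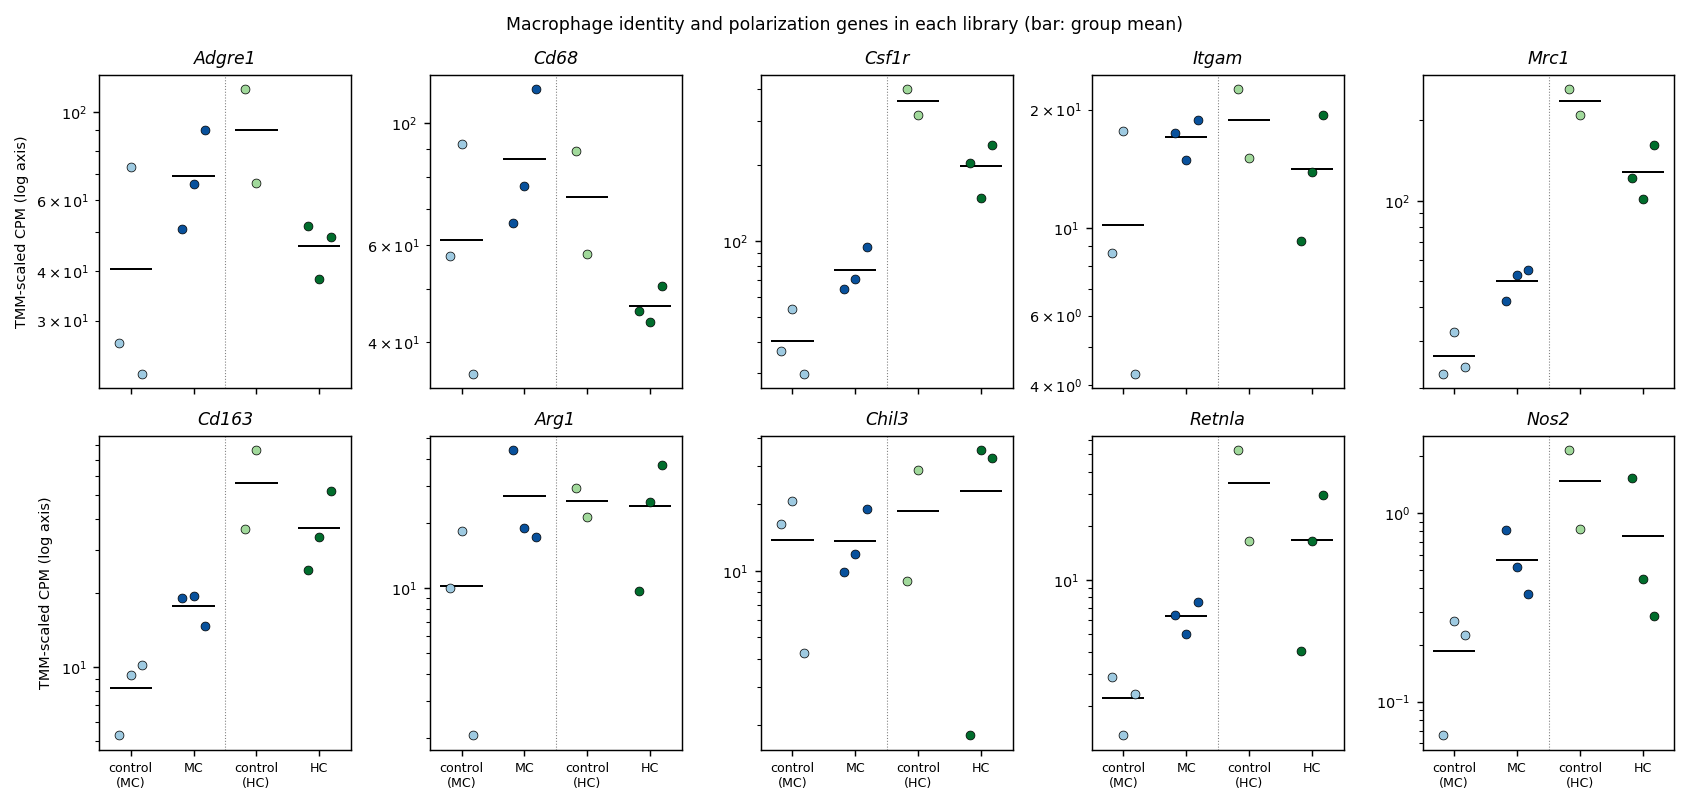
TMM-scaled CPM on a log axis for each of the 10 genes, 1 point per library, with bars at the group means and a dotted line between the experiments. The MC points lie above all of their control points for Csf1r, Mrc1, Cd163, Retnla and Nos2 only, and the points of the libraries labelled HC lie below both of their control points for Adgre1, Cd68, Csf1r and Mrc1 only.

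In MC pancreata, 5 of the 10 genes lay above every control library, with 1.90-fold to 2.97-fold higher means, but none was called. Over all 13902 genes tested, 0.0% were called and 10.9% lay above every control library. Csf1r, Mrc1, Cd163, Retnla and Nos2 were the 5 genes that did not overlap, and the same 5 had an unadjusted p under 0.05, as did 9.2% of all genes in the higher direction. The median log2 fold change of the 10 genes was 0.93, against -0.02 over all genes. DESeq2 called 2 of the 10, Cd163 and Retnla, among 3.16% of 15175 genes called. Leaving out control replicate 2 brought the edgeR calls to 5, namely Adgre1, Csf1r, Itgam, Mrc1 and Retnla, where 5.08% of all genes were called. Each other library left out gave 0 of the 10, with 1.21% of all genes called without MC replicate 1.

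Among the identity genes, Csf1r, the receptor on which macrophages depend, was 36.8, 53.9 and 29.8 CPM in control replicates 1 to 3 and 64.6, 70.7 and 95.1 CPM in MC replicates 1 to 3. The groups did not overlap, and the log2 fold change was 0.93 (SE 0.24, adjusted p = 0.172). Adgre1, which encodes the macrophage antigen F4/80, was 26.3, 72.7 and 22.1 CPM in the control and 50.9, 65.9 and 90.3 CPM in MC. Here control replicate 2 lay above 2 of the 3 MC libraries, and the log2 fold change was 0.77 (SE 0.45, adjusted p = 0.428). Cd68, a lysosomal glycoprotein of phagocytes, was 57.4, 91.7 and 35.1 CPM in the control and 65.8, 77.1 and 115.6 CPM in MC (log2 fold change 0.49, adjusted p = 0.506), and the groups overlapped through the same control library. Itgam, the alpha chain of the integrin CD11b/CD18 found on macrophages, monocytes and neutrophils, was 8.63, 17.7 and 4.27 CPM in the control and 17.4, 14.8 and 18.8 CPM in MC (log2 fold change 0.73, adjusted p = 0.435). In this table the name Itgam is paired with the identifier ENSMUSG00000108596, a gene model that the annotation calls Gm49368 and that shares 3450 of the 5024 exon bases of Itgam, so the level of Itgam in MC does not compare with the other table.

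Among the genes of alternative activation, Mrc1 was 22.6, 32.4 and 23.9 CPM in the control and 42.2, 52.9 and 55.1 CPM in MC. Each MC library lay above each control library, with a log2 fold change of 0.93 (SE 0.17, adjusted p = 0.089), the smallest adjusted p of the 10. Cd163, the scavenger receptor for haemoglobin bound to haptoglobin, was 5.29, 9.29 and 10.2 CPM in the control and 19.1, 19.5 and 14.7 CPM in MC (log2 fold change 1.1, SE 0.25, adjusted p = 0.135). Retnla was 2.91, 1.37 and 2.34 CPM in the control and 6.42, 5.03 and 7.58 CPM in MC (log2 fold change 1.53, SE 0.31, adjusted p = 0.097). Both genes were thus separated between the groups at low levels. Arg1 was 10.1, 18.5 and 2.07 CPM in the control and 43.7, 19.1 and 17.4 CPM in MC (log2 fold change 1.37, SE 0.68, adjusted p = 0.380), and control replicate 2 lay above MC replicate 3. Chil3 was 16.4, 20.7 and 4.27 CPM in the control and 9.94, 11.9 and 19.1 CPM in MC. Its groups overlapped in full, with a log2 fold change of -0.02 (SE 0.51, adjusted p = 0.987), and the sign turned with library size scaling alone. Nos2 had 2, 9 and 5 counts in the control and 24, 22 and 15 counts in MC, or 0.066 to 0.268 CPM against 0.370 to 0.811 CPM (log2 fold change 1.57, SE 0.57, adjusted p = 0.286).

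No gene of the wider lists was called in MC. Of 21 macrophage core genes, 0 were called, 8 had an unadjusted p under 0.05 in the higher direction, and the median log2 fold change was 0.82. Over all genes, 9.2% had such a p in the higher direction. Cybb, a subunit of the phagocyte NADPH oxidase, was 18.4 CPM in the control and 55.4 CPM in MC (log2 fold change 1.59, adjusted p = 0.098), and C1qa, a chain of complement C1q, was 59.6 and 146.9 CPM (1.3, adjusted p = 0.132). Of 15 classical activation genes tested, 11 had an unadjusted p under 0.05 in the higher direction and the median was 1.52. The interferon-induced chemokine Cxcl9 was 0.54 CPM in the control and 6.1 CPM in MC (log2 fold change 3.53, SE 0.52, adjusted p = 0.078). Of 19 alternative activation genes tested, 5 had such a p and the median was 0.53. On this list, the transcription factor Irf4 was at 0.86 and 3.81 CPM (log2 fold change 2.14, adjusted p = 0.091). The lectin Clec10a was at 2.58 and 5.66 CPM (1.13, adjusted p = 0.095). Which cells the reads of Irf4 came from was not tested. Of 10 monocyte genes 6 had such a p (median 1.01), and Ccr2, the receptor through which monocytes are recruited, was 28.8 and 63.3 CPM (log2 fold change 1.13, adjusted p = 0.283). Of 10 genes of resident-type macrophages 8 had such a p (median 1.13), among them Lyve1 at 8.78 and 24.5 CPM (log2 fold change 1.48, adjusted p = 0.080) and Timd4 at 0.95 and 4.56 CPM (2.27, adjusted p = 0.083). Of 8 neutrophil genes 0 had such a p and the median was 0.18. Genes of other cells moved with the comparison: all 7 B cell genes had an unadjusted p under 0.05 (summed level 4.03 to 4.70 CPM in the control and 23.5 to 114.8 CPM in MC), as did all 7 T cell genes (1.93 to 2.56 and 6.77 to 9.36 CPM) and all 7 adipocyte genes (2.81 to 15.1 and 26.4 to 130.4 CPM). No measured gene of these 3 lists was at 0 in all libraries of the comparison. Of 28 acinar genes, 26 had a log2 fold change below 0 (median -0.58), as did 53.1% of all genes. All 7 fibroblast genes had one above 0 (median 0.69), as did 46.9% of all genes. The part of the genes of other cells, and of the lower acinar share in MC, in the result was not tested.

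In the libraries labelled HC, Adgre1, Cd68, Csf1r and Mrc1 lay below the control, and again none of the 10 genes was called. Over all 18407 genes, 0.565% were called, and 0.0978% were called in the lower direction. These 4 genes lay below both control libraries in all 3 libraries labelled HC, as did 16.1% of all genes, and the same 4 genes had an unadjusted p under 0.05, as did 7.47% of all genes in the lower direction. The median log2 fold change of the 10 genes was -0.76, against 0.00 over all genes, and 9 of the 10 fold changes were below 0. DESeq2 called 0 of the 10 and 1.52% of 31252 genes.

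Csf1r was 402.4 and 315.3 CPM in the control and 204.4, 147.9 and 241.6 CPM in the libraries labelled HC, with a log2 fold change of -0.86 (SE 0.22, adjusted p = 0.156). Mrc1 was 262.6 and 208.7 CPM in the control and 121.4, 101.9 and 162.1 CPM in the libraries labelled HC (log2 fold change -0.87, SE 0.21, adjusted p = 0.137). For both genes the lower control library stood above the highest library labelled HC. Adgre1 was 114.4 and 66.3 CPM in the control and 51.7, 38.0 and 48.5 CPM in the libraries labelled HC (log2 fold change -0.97, SE 0.24, adjusted p = 0.147), and Cd68 was 89.0 and 57.9 CPM against 45.6, 43.5 and 50.5 CPM (-0.66, SE 0.19, adjusted p = 0.18). Itgam was 22.6 and 15.1 CPM in the control and 9.27, 13.9 and 19.4 CPM in the libraries labelled HC, where the groups overlapped (log2 fold change -0.41, adjusted p = 0.601).

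The remaining genes of activation were spread too widely to separate. Cd163 was 36.6 and 76.2 CPM in the control and 24.8, 33.8 and 52.1 CPM in the libraries labelled HC (log2 fold change -0.61, SE 0.39, adjusted p = 0.502), and the value without control replicate 2 was 0.0084. Arg1 was 29.3 and 21.4 CPM in the control and 9.69, 25.2 and 37.5 CPM in the libraries labelled HC (log2 fold change -0.07, SE 0.50, adjusted p = 0.965). Replicate 1 was the lowest of the libraries labelled HC for Arg1, Chil3 and Retnla. Chil3 was 9.01 and 28.5 CPM in the control and 1.80, 35.1 and 32.3 CPM in the libraries labelled HC (log2 fold change 0.30, SE 1.05, adjusted p = 0.928), a sign that turned when the library labelled HC replicate 2, the library labelled HC replicate 3 or control replicate 1 was left out. Retnla was 52.5 and 16.5 CPM in the control and 4.02, 16.5 and 29.6 CPM in the libraries labelled HC (log2 fold change -1.04, SE 0.78, adjusted p = 0.581), and without control replicate 1 the value was 0.018. Nos2 was 2.15 and 0.82 CPM in the control and 1.54, 0.44 and 0.29 CPM in the libraries labelled HC (log2 fold change -0.96, SE 0.75, adjusted p = 0.599).

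Of the 21 macrophage core genes, 0 were called in the libraries labelled HC, 18 had an unadjusted p under 0.05 in the lower direction, and the median log2 fold change was -0.82. Over all genes, 7.47% had such a p in the lower direction. Fcgr3, a receptor for immunoglobulin G, was 143.0 CPM in the control and 70.2 CPM in the libraries labelled HC (-1.03, SE 0.20, adjusted p = 0.081). Of 20 classical activation genes tested 10 had such a p (median -0.86), with Cxcl9 at 12.3 and 2.03 CPM (log2 fold change -2.6, SE 0.53, adjusted p = 0.095). Of 22 alternative activation genes tested 10 had such a p and 1 was called in the other direction: the transcription factor Klf4 was 132.1 CPM in the control and 295.5 CPM in the libraries labelled HC (log2 fold change 1.16, SE 0.16, adjusted p = 0.045). In the higher direction 0.467% of all genes were called. Klf4 is also made by epithelial cells, and which cells its reads came from was not tested. Of 7 stomach genes tested, 7 lay higher in each library labelled HC than in the control, as did 17.5% of all genes. The summed level of the stomach genes was 2421 to 4093 CPM in the control and 9153 to 9356 CPM in the libraries labelled HC. Of 10 monocyte genes 4 had an unadjusted p under 0.05 in the lower direction and 1 in the higher (median -0.65), and of 10 genes of resident-type macrophages 0 had such a p (median -0.32). Of 10 neutrophil genes tested 6 had such a p in the lower direction (median -0.82), and their summed level was 118.6 to 167.5 CPM in the control and 97.2 to 102.1 CPM in the libraries labelled HC. No gene of these 3 lists was called, and no measured one was at 0 in all libraries of the comparison. Of 7 B cell genes 2 were called lower, as were 0.0978% of all genes. The part of the stomach, neutrophil and B cell genes in the fold changes of the macrophage genes was not tested.

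**Figure D2:**
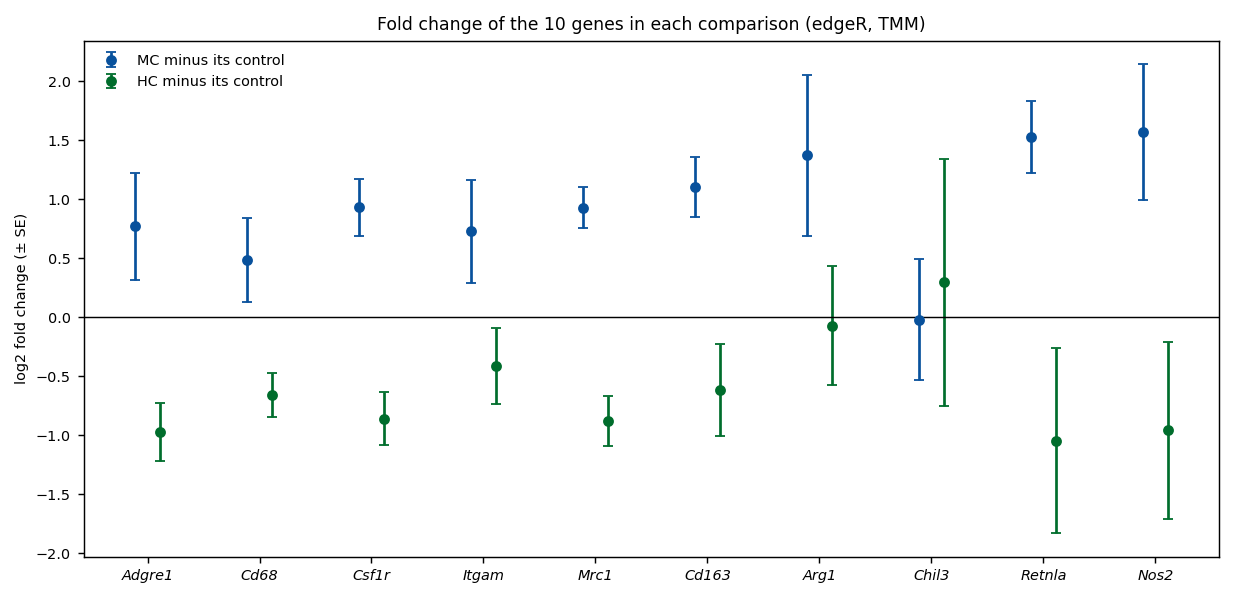
Log2 fold change with its SE for each of the 10 genes in both comparisons, from edgeR with TMM scaling. The MC points are above 0 except Chil3 at -0.02, and the points of the libraries labelled HC are below 0 except Chil3 at 0.30.

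The effect of M46 (MC minus its control) and the effect of HPK1 (libraries labelled HC minus their control) were then compared directly in 1 model over 14867 genes. The difference was called for 2 of the 10 genes, against 2.18% of all genes and 1.78% in the higher direction. It was 1.80 on the log2 scale for Mrc1 (SE 0.29, adjusted p = 0.023) and 1.79 for Csf1r (SE 0.36, adjusted p = 0.035). For Ptprc, the pan-leukocyte antigen CD45, it was 2.6 (SE 0.45, adjusted p = 0.028). The differences of Retnla (2.57, SE 0.92, adjusted p = 0.149), Nos2 (2.52, SE 1.03, adjusted p = 0.195), Adgre1 (1.74, SE 0.60, adjusted p = 0.138), Cd163 (1.71, SE 0.51, adjusted p = 0.092) and Cd68 (1.14, SE 0.46, adjusted p = 0.195) had an unadjusted p under 0.05, as did 12.3% of all genes in the higher direction, but were not called. The differences of Arg1 (1.44, SE 0.97), Itgam (1.14, SE 0.62) and Chil3 (-0.32, SE 1.26) had a larger p. DESeq2 called 5 of the 10, Mrc1, Cd163, Retnla, Adgre1 and Csf1r, where 6.66% of genes were called. The count over the 10 genes and the share of all genes moved when 1 library was left out. Without MC control replicate 2 the count was 5 (Adgre1, Cd68, Csf1r, Itgam and Mrc1), where 10.7% of all genes were called, and without MC replicate 1 it was 2 and 3.09%. It was 1 (Mrc1) without MC replicate 3 (0.559% of all genes), MC control replicate 3 (0.618%), the library labelled HC replicate 1 (2.01%) or HC control replicate 2 (1.21%). It was 0 without MC replicate 2 (0.0539% of all genes), MC control replicate 1 (0.0538%) or the library labelled HC replicate 3 (0.0269%), and also without the library labelled HC replicate 2 or HC control replicate 1, where 0.0% of all genes were called. Scaling by library size alone gave 0 of the 10 and 0.659% of all genes, at an all-gene median of 0.34. Itgam enters this difference from unlike gene models, and the experiments also differed in age, library kit, acinar share and stomach share. The controls were unlike as well, B control for MC and WT for HC. By its label HPK1/B, HC differs from WT in B as well as in HPK1. These differences cannot be told apart from that between M46 and HPK1.

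Counts were also set against those of Csf1r inside each library, which removes the scaling between libraries. Mrc1 kept close to Csf1r, at 58% to 80.2% of its counts in all 11 libraries, and the group means of the log2 ratio differed by -0.02 between MC and its control and by -0.02 between the libraries labelled HC and theirs, with overlapping groups each time. None of the 9 genes other than Csf1r separated from Csf1r in MC or in the libraries labelled HC. The differences of the group means ran from -0.74 (Chil3) to 0.80 (Nos2) in MC and from -0.36 (Retnla) to 0.62 (Arg1) in the libraries labelled HC. No test was run on these ratios. Relative to the geometric mean of the macrophage core list, Cd68 lay lower in MC than in each control library. It lay higher in the libraries labelled HC than in both of theirs, and the other genes overlapped. The share of all genes that separated relative to this list was not counted, so the result cannot be read as particular to Cd68.

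**Figure D3:**
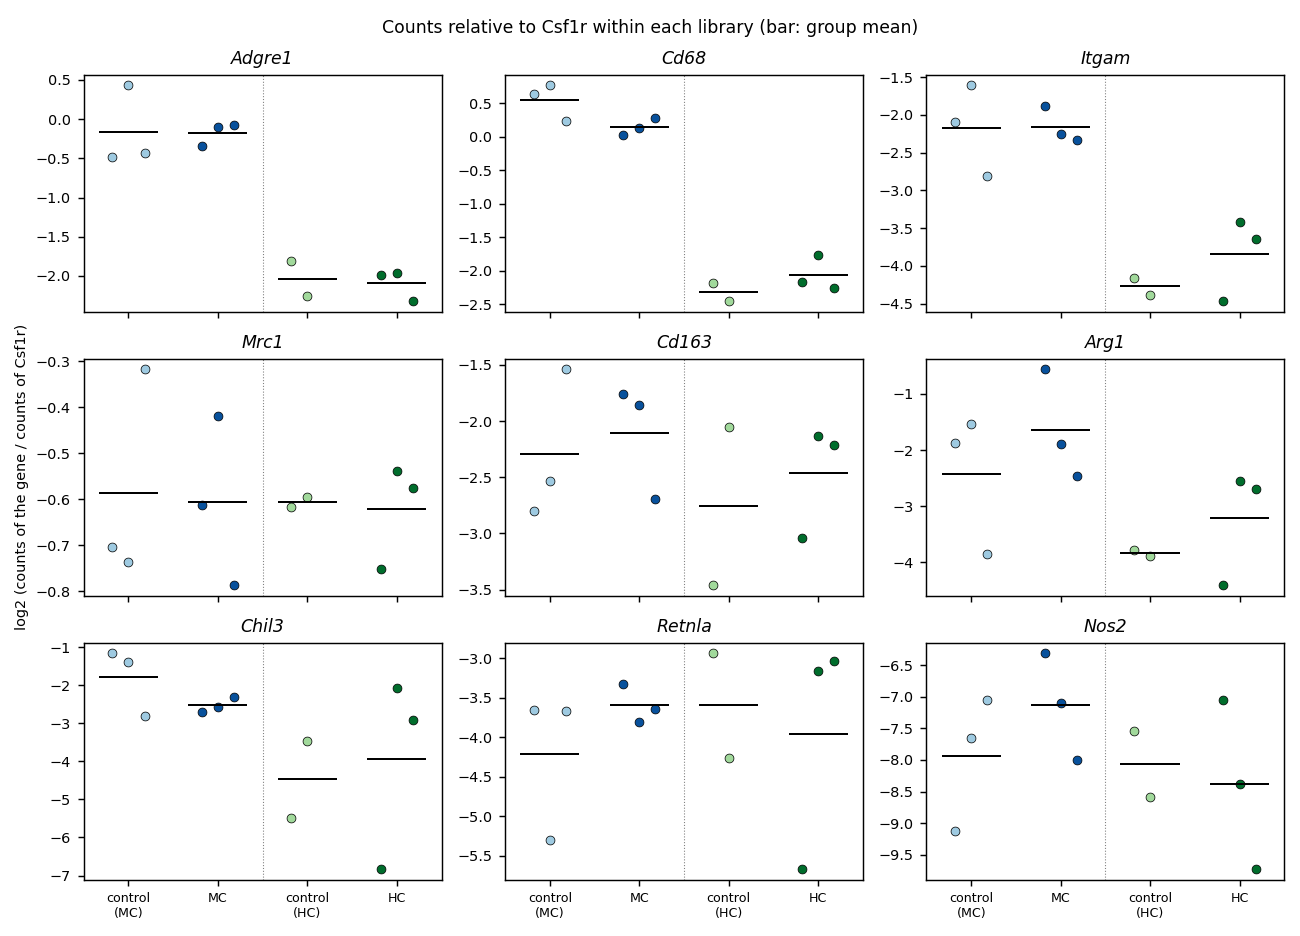
Log2 ratio of the counts of each gene to the counts of Csf1r in the same library, 1 point per library with bars at the group means. The Mrc1 points stay between 58% and 80.2% of Csf1r in all libraries, and in every panel each group overlaps its control.

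Relative to Ptprc the picture differed by experiment. In MC, Adgre1, Cd68, Csf1r, Itgam, Mrc1 and Chil3 lay lower relative to Ptprc than in each control library, by 0.77 to 1.52 on the log2 scale, as Ptprc itself was 13.9 CPM ± 5.71 in the control and 43.9 ± 7.47 in MC (SD, n = 3 each; log2 fold change 1.66, SE 0.30, adjusted p = 0.084). In the libraries labelled HC, Ptprc was 94.4 ± 31.0 CPM (n = 2) in the control and 48.9 ± 13.8 (n = 3), and none of the 10 genes separated from it. How many of all genes lay lower relative to Ptprc was not counted. The result in MC therefore cannot be read as particular to these genes.

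Levels between the genes were compared per kilobase of exon, as mean CPM per kilobase. Nos2 was the lowest of the 10 in all 4 groups, at 0.0422 to 0.337. In the MC experiment Cd68 was the highest, at 68.6 ± 20.8 in MC and 48.8 ± 22.7 in its control (SD, n = 3 each), and Adgre1 came next at 21.3 ± 6.14 and 12.5 ± 8.67. In the HC control Csf1r (62.2 ± 10.7), Cd68 (58.4 ± 17.5) and Retnla (57.6 ± 42.5) did not differ beyond their spread (n = 2). In the libraries labelled HC the order was Cd68 (37 ± 2.86), Csf1r (34.3 ± 8.17) and Retnla (27.9 ± 21.4), again within their spread (n = 3). In each of the 4 groups the means of Adgre1, Cd68 and Csf1r were above those of Cd163, Itgam and Nos2. Adgre1 was 71.4% to 134.8% of the Csf1r counts in the MC experiment and 20.1% to 28.4% in the HC experiment. The experiments differed in library kit, age, control genotype and acinar share, which cannot be told apart here.

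Arg1 and Nos2, which share a substrate, were in a ratio of 36.9 to 53.9 counts in MC and of 69 and 9.2 in its control replicates 2 and 3, on both sides of the MC range. Control replicate 1 had 304 counts of Arg1 against 2 of Nos2, under the floor of 3 counts, and was given no ratio. The ratio was 13.6 and 26.1 in the HC control, and 6.31, 56.6 and 131.4 in the libraries labelled HC. The ratios of the libraries labelled HC thus lay on both sides of those of their control, and Nos2 had only 9 to 75 counts in the HC experiment. Chil3 and Chil4, whose longest transcripts are 94.2% identical over 1543 aligned bases, shared 3.75% of their 100-base windows, so reads in those windows cannot be placed. Chil3 had 61 counts against 84 of Chil4 in the library labelled HC replicate 1 but 1105 against 27 and 1019 against 43 in replicates 2 and 3. Chil4 was 4.67 CPM ± 0.09 in the control (n = 2) and 1.57 ± 0.83 in the libraries labelled HC (n = 3; log2 fold change -1.57, SE 0.43, adjusted p = 0.169), and its low level moved apart from that of Chil3. Of the other paralogs, Chil1 was called in the libraries labelled HC, at 13.7 ± 1.02 CPM in the control and 3.47 ± 0.61 (log2 fold change -1.98, SE 0.21, adjusted p = 0.037). Itgb2, the partner chain of Itgam, was 35.5 CPM ± 14 in the MC control and 52.3 ± 10.5 in MC (n = 3 each; log2 fold change 0.56, adjusted p = 0.397), and 74 ± 22.9 in the HC control and 41.6 ± 7.29 in the libraries labelled HC (n = 2 and 3; log2 fold change -0.83, adjusted p = 0.162). Itgax, the alpha chain of CD11c, was 2.24 ± 1.27 and 5.44 ± 1.98 in the MC experiment (log2 fold change 1.26, adjusted p = 0.300) and 41.7 ± 20.3 and 19.7 ± 8.66 in the HC experiment (log2 fold change -1.08, adjusted p = 0.32).

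The genes most like Csf1r, Mrc1 and Arg1 were named by Pearson's r of log2 CPM, centred within each table, over the 11 libraries and among 13818 other genes. The points share their library and its acinar content, so the values are a description. Cmklr1 (0.977), Nckap1l (0.975), P2ry10b (0.975), Kif11 (0.975) and Fermt3 (0.974) were most like Csf1r, and Mrc1 was at 0.968. For Mrc1 the order was Trim30b (0.977), Calu (0.968), Csf1r (0.968), Bub1 (0.965) and Siglec1 (0.963). For Arg1 it was Adgrb2 (0.948), Abcb1b (0.943), Mustn1 (0.932), Itgam (0.920) and Sncg (0.912). The r of Arg1 with Csf1r was 0.605 and with Mrc1 0.550, while that of Csf1r was 0.928 with Adgre1, 0.887 with Cd68, 0.794 with Itgam and 0.587 with Cd163. Chil3 had the lowest r with Csf1r of the 9 other genes, at 0.163.

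**Figure D4:**
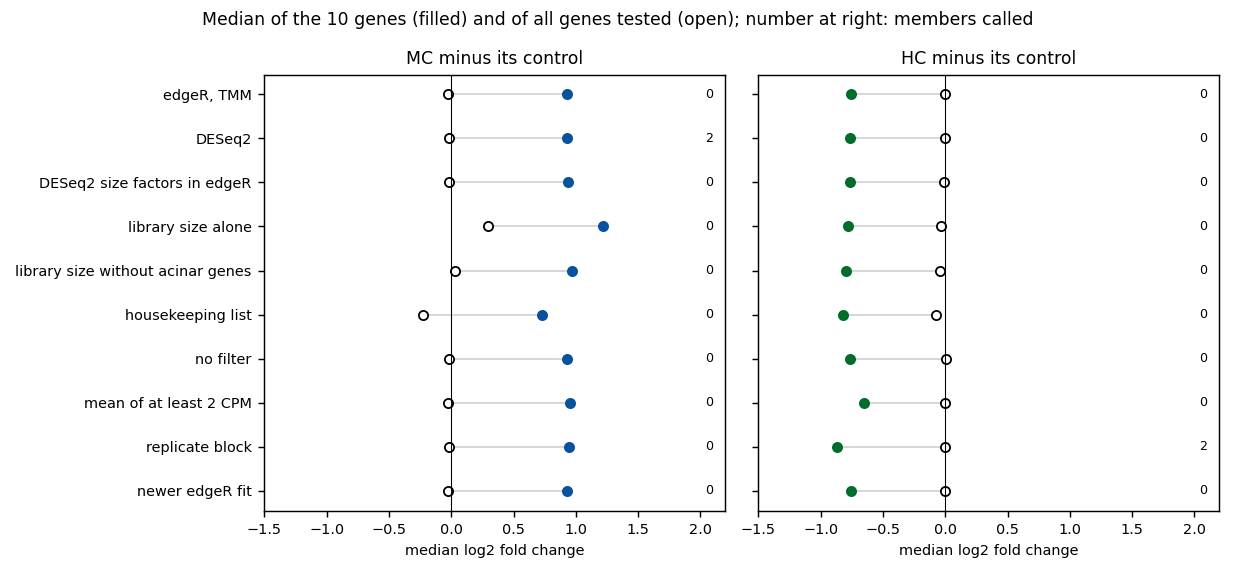
Median log2 fold change of the 10 genes (filled) and of all genes tested (open) in each comparison under each scaling, filter or fit, with the number of the 10 genes called at the right. In MC the all-gene median moved to 0.29 with library size alone and to -0.22 with the housekeeping list, and the distance between the medians of the 10 genes and of all genes stayed between 0.92 and 0.98.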

How the data were processed

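The authors deposited raw read counts per gene, and 2 of the tables were used, 1 for MC and its control and 1 for HC and its control. A further 4 libraries of the series are not reported here, nor is the table of the authors' own fold changes. Per the labels, total RNA was extracted with Trizol from pooled pancreata and 100 ng entered each library; the MC experiment followed a standard Illumina protocol and the HC experiment the KAPA Stranded mRNA kit, whereas the paper's methods give RNeasy extraction and an Illumina TruSeq stranded library. The submitters' processing notes name bcl2fastq 2.17.14, STAR 2.6.1a, HTSeq 0.6.1, DESeq2 and mm10. Strand setting and annotation release of the counting are not given in the sources used here.

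From the counts, each comparison was fitted on the libraries of its own 2 groups with edgeR 4.0.16 in R 4.3.3 (filterByExpr, TMM, quasi-likelihood test, Benjamini-Hochberg adjustment over all genes tested). The difference between the comparisons was fitted in 1 model over both tables, scaled together. DESeq2 1.42.0 and other scalings, filters and left-out libraries were alternatives. The edgeR step was tested on simulated data. CPM per kilobase used the union of exons of GENCODE vM21 on GRCm38. For Itgam this was the 5024 bases of Itgam itself, also in the MC table, where the counted gene model is Gm49368. Ratios to Csf1r and Ptprc used raw counts. Replicates are pools of 3 mice, and no source says whether pools came from separate litters, so p-values measure the spread between these pools. Within groups, chi-square over genes found no repeated library. Every library held at least 29766575 counts; a floor of 3 counts covers counting error only.

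The members and lists were chosen with earlier results of these data known. Named genes were all 10 members, Ptprc, Map4k1 and the paralogs or partners of members, the 5 genes most like Csf1r, Mrc1 and Arg1 over the 11 libraries, and, from each list, up to 2 genes with the highest mean CPM and up to 2 with the smallest unadjusted p. Same-numbered libraries correlated at -0.30 to 0.30 in the MC experiment, so replicate numbers were not used as pairs.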

Additional observations from a re-analysis of the deposited data

Results flagged for a closer look

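The effect of M46 after cerulein differed from that of HPK1 for 2 of the 10 genes and for Ptprc by a test of the difference itself (edgeR, adjusted over 14867 genes). The difference on the log2 scale was 1.80 for Mrc1, 1.79 for Csf1r and 2.6 for Ptprc. In each case all 3 MC libraries lay above their control and all 3 libraries labelled HC lay below theirs. Of all genes, 10.9% lay above the control in MC and 16.1% below it in the libraries labelled HC. The share of genes with both was not counted. Map4k1 was also lower in the libraries labelled HC than in their control, and no cause was tested. No group held more than 3 libraries, so no library could be tested as an outlier of its group.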

How the results depend on the processing

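None of the 10 genes was called in either comparison with TMM scaling, and most alternatives kept that count. In MC, DESeq2 called 2 (3.16% of all genes), and leaving out 1 library gave 0 to 5 calls, with 5 without control replicate 2 (5.08%). In the libraries labelled HC the count was 0 under all alternatives run but the replicate block (2 calls, Csf1r and Mrc1, with 1.84% of 18407 genes called and 0.842% in the lower direction), and leaving out 1 library moved the median from -0.98 to -0.31, the latter without control replicate 1. The replicate block gave 0 calls in MC. Replicate numbers were not taken as pairs, since no label ties them, same-numbered libraries in MC correlated at -0.30 to 0.30, and the HC experiment shares only 2 numbers. A fit of the HC experiment together with further libraries of the series was not run.

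The difference between the M46 and HPK1 effects was called for 5 genes with DESeq2 (6.66% of all genes) and 0 with library size alone (0.659%). It was called for 1 without acinar genes (1.12%) and for 0 to 5 when 1 library was left out (0.0% to 10.7%). Signs turned for small values: Chil3 in MC was 0.21 with library size alone, 0.12 with the replicate block and -0.42 to 0.39 with 1 library left out, and in the libraries labelled HC it was -0.87 with the replicate block and -0.31 to 1.35 with 1 library left out. There, leaving out 1 library gave -0.55 to 0.31 for Arg1, -1.76 to 0.018 for Retnla and -1.05 to 0.0084 for Cd163. In the difference of the effects of M46 and HPK1 that of Chil3 was -1.39 to 0.28 with 1 library left out. With the macrophage core list in place of Csf1r, 1 gene (Cd68) did not overlap in MC and 1 (Cd68) in the libraries labelled HC. The share of all genes was not counted for either. The newer edgeR fit, added after seeing the data, changed no call. The cause of these changes was not tested. Depth limits Nos2, at 2 to 75 counts.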
